A study of Mus musculus with 11 samples.

Results

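A set of 10 genes of the heat shock response was examined, namely Hspa1a, Hspa1b, Hspa8, Hsph1 and Dnajb1 of the Hsp70 system, the Hsp90 genes Hsp90aa1 and Hsp90ab1, the small heat shock protein gene Hspb1, and the mitochondrial chaperonin genes Hspd1 and Hspe1. They were chosen by gene name in the count tables of mouse pancreas and epididymal adipose tissue, with earlier results of these data known. The shares of all genes set beside them are therefore description. All 10 were present, among 54532 genes in the pancreas table and 46078 in the adipose table, of which 45260 were in both.

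The series compares lean control mice with mice carrying obesity-related alcohol-induced acute pancreatitis (OA-AP). All were wild type male mice of strain C57BL/6 aged 16 W. Feeding lasted 12 weeks, with normal chow for controls and a high-fat diet for OA-AP mice, and all were then injected intraperitoneally 2 times, with 1 h between injections. Saline was given to controls, and OA-AP mice were given 2 g/kg ethanol each time. Tissue was taken 12 h after the first injection. The pancreas was sequenced from 2 control and 3 OA-AP samples and adipose tissue from 3 and 3. Diet, ethanol and pancreatitis changed together, so their shares in any difference cannot be told apart, and samples treated with Chaiqin chengqi decoction (CQCQD) were not analysed here. The labels do not state that same-group samples came from separate animals, so the p-values measure only the spread between these samples.

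Heat shock proteins are molecular chaperones that bind unfolded or partly folded proteins and let them refold or pass to degradation. Hsp70 proteins hold exposed hydrophobic stretches in a cycle of ATP hydrolysis that J-domain proteins such as Dnajb1 start and exchange factors such as Hsph1 reset. Hsp90 acts later on kinases and steroid receptors, small heat shock proteins keep denatured proteins soluble, and in mitochondria Hspd1 (Hsp60) forms a folding chamber that Hspe1 (Hsp10) caps. The heat shock factor Hsf1 activates many of these genes through repeats of the bases GAA and their reverse, and acinar cells of the pancreas make large amounts of secreted protein.

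Library depth was 14188832 to 17238919 assigned counts in the pancreas and 20825177 to 27928097 in adipose tissue. Levels are given as CPM, counts set to a common library size, after scaling by trimmed mean of M values (TMM). In the pancreas 12 acinar genes summed to 577970 and 678430 CPM in the 2 control libraries and to 280720 to 367250 CPM in the 3 OA-AP libraries. TMM factors were 0.70 and 0.79 in control and 1.11 to 1.32 in OA-AP pancreas. Scaling by library totals alone therefore shifts the median log2 change of all tested genes from 0.04 to 0.75 in the pancreas and from -0.01 to -0.17 in adipose tissue, and the share of differentially expressed genes (DEGs) that were higher from 54.5% to 92.0% and from 48.1% to 32.1%. In bulk tissue fewer cells of one type and less RNA per cell cannot be told apart. The adipose libraries held 24491 to 28517 CPM of 6 adipocyte genes, and control replicate 2 also held 5479 CPM of the acinar genes against 8.14 to 17.6 CPM in the other adipose libraries.

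The upstream sequences of these genes are shown first because Hsf1 is known to act on heat shock genes through such repeats. RefSeq promoter windows on GRCm38.p6 were at hand for 7 of the 10 genes, and the 250 bases before the start site were searched on both strands for GAANNTTC or TTCNNGAA. A gene with several listed start sites counted where any of its windows held a match. Of the 7 genes 6 held a match, Dnajb1 being the exception, against 14.5% of 27025 genes counted the same way. The pair Hspa1a and Hspa1b and the gene Hspb1, which had the largest fitted changes of the 10 in the pancreas, are printed in full in the direction of transcription, with matches in capitals. Hspa1a comes from chr17:34972157-34972406 (minus strand), Hspa1b from chr17:34959239-34959488 (minus strand) and Hspb1 from chr5:135887669-135887918 (plus strand).
Hspa1a: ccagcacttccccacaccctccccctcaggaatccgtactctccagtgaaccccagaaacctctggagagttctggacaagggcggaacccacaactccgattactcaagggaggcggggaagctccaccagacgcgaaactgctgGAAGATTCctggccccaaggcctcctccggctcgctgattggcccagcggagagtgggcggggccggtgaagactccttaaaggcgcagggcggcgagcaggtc
Hspa1b: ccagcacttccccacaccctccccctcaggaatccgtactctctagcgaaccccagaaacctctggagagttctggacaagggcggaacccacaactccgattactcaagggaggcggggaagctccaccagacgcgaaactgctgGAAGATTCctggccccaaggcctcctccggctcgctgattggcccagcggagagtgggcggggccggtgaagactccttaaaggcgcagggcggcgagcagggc
Hspb1: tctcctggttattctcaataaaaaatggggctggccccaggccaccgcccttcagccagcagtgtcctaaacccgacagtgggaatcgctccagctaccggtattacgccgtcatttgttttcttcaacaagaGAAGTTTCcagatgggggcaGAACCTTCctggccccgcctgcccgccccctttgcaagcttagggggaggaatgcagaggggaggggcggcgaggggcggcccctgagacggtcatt
The Hspa1a and Hspa1b windows differed at 3 of 250 positions, and in both the match began 104 bases before the start site. In Hspb1 matches began 117 and 97 bases before it. The Hsph1 match began 33 bases before its first listed RefSeq start site but lies inside the annotated gene (chr5:149614287-149636376, minus strand). Hsph1 and Hspe1, which are among the members whose changes differed between tissues, are shown as stretches of 30 bases from chr5:149636351-149636380 (minus strand) and chr1:55088053-55088082 (plus strand).
Hsph1: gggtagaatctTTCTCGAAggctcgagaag
Hspe1: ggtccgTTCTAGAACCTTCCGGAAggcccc
The 18 capital bases at Hspe1 contain the longer forms TTCNNGAANNTTC and GAANNTTCNNGAA, of which at least 1 occurred in 0.466% of 32851 windows of the same length. This stretch also gives the match of Hspd1, in the window of its second listed start site, and lies inside the annotated Hspd1 gene, since Hspd1 (chr1:55077835-55088243, minus strand) and Hspe1 (chr1:55088132-55091307, plus strand) run in opposite directions and overlap by 112 bases at their starts. A match in letters does not show that a factor was bound there.

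Levels of different genes were set in CPM per kb of the gene length in the count table, which can exceed that of a transcript. Hspa8 was 4301 bases long there against 2394 in its longest coding transcript, and Hsp90ab1 2999 against 2520. The order by level therefore depends on the length used. In pancreas controls it was Hsp90ab1, Hspa8, Hspb1, Hspe1, Hspd1, Hsp90aa1, Dnajb1, Hsph1, Hspa1b and Hspa1a. No neighbours in this order overlapped over the 2 libraries. Hsp90ab1 stood at 63.2 ± 3.25 CPM per kb (SD, n = 2), Hspa8 at 29.7 ± 0.343 and Hspa1a at 0.0602 ± 0.0376. Adipose controls shared the top of this order, with Hsp90ab1 at 240 ± 22.5 CPM per kb (SD, n = 3) and Hspa8 at 178 ± 5.18, and also its bottom, with Hspa1a at 0.831 ± 0.0876. Hspd1 ranked next there at 84.7 ± 5.09 CPM per kb and overlapped with Hspb1 at 78.6 ± 2.57, as did Hspa1b with Hsph1. In OA-AP adipose tissue Hspa8 ranked first by this measure, at 533 ± 117 CPM per kb (n = 3), followed by Hspb1 and Hsp90ab1. Hspa8 overlapped with Hspb1 and Hspb1 with Hsp90ab1. Without division by length Hspa8 already had the higher mean in adipose controls, at 765 CPM against 718 CPM for Hsp90ab1, with overlapping ranges. In OA-AP pancreas Hspb1 came first at 148 ± 119 CPM per kb (n = 3), but its range of 57.9 to 283 contained that of Hsp90ab1. Summed over the 10 genes, levels were 434 and 410 CPM in control pancreas and 783, 684 and 1097 CPM in OA-AP pancreas. In adipose tissue the sums were 2050 to 2198 CPM in controls and 4950 to 5050 CPM in OA-AP, of which Hspa8 and Hsp90ab1 made up 62.5% to 73.4%.

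**Figure D1:**
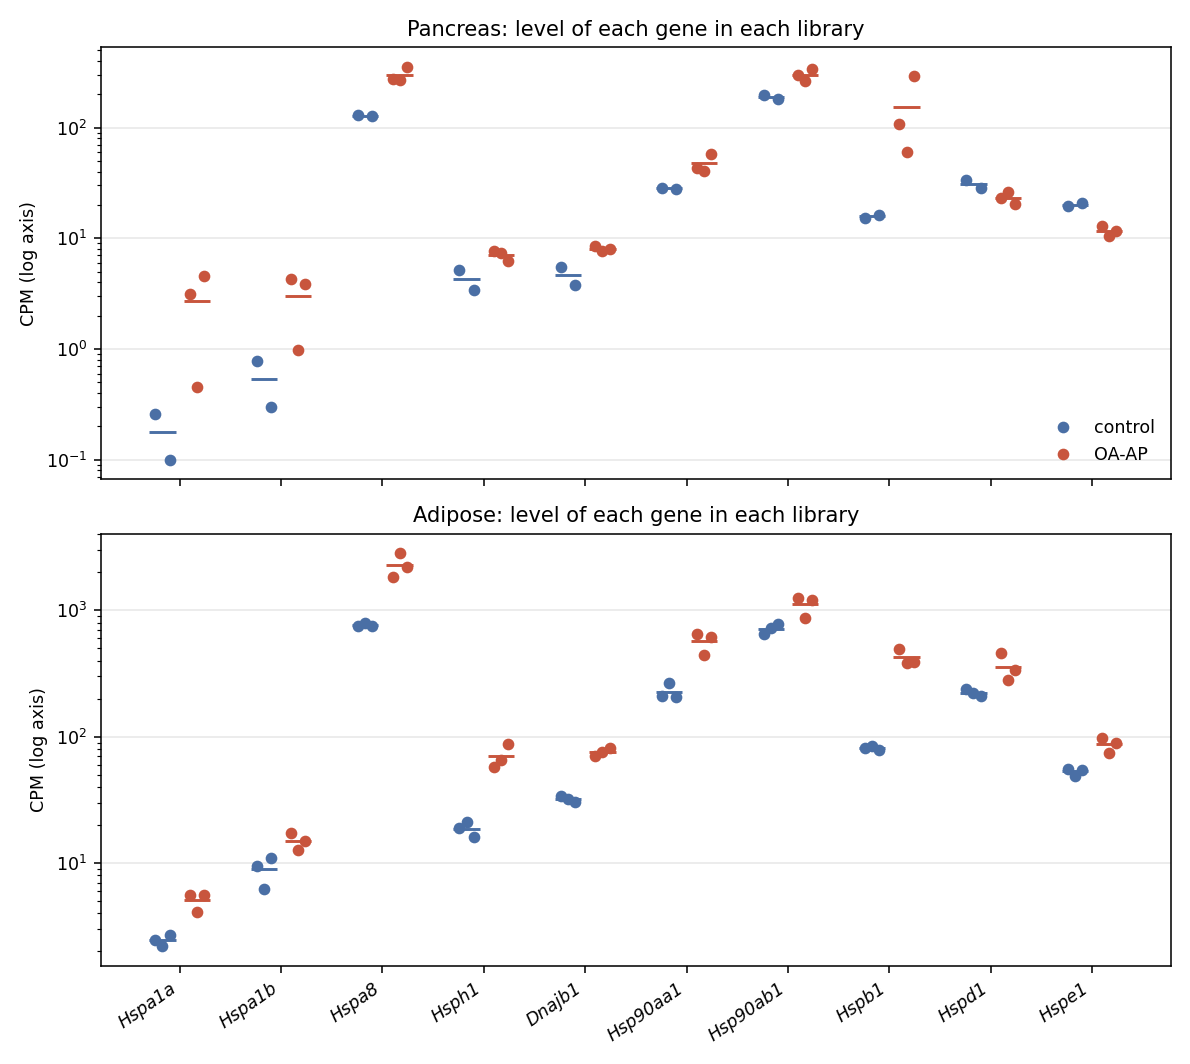
Level of each gene in each library as CPM on a log axis, in the pancreas (top, 2 control and 3 OA-AP libraries) and adipose tissue (bottom, 3 and 3), with points for libraries and bars for group means. The groups do not overlap for any gene in either tissue, and in the pancreas the OA-AP points of Hspd1 and Hspe1 lie below the control points. Over all tested genes the groups did not overlap for 62.3% in the pancreas and 52.4% in adipose tissue. Hspa1a and Hspa1b entered the pancreas test only through their OA-AP counts.

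In the pancreas 8 of the 10 genes had at least 10 counts in every library, and 5 of these 8 were called higher in OA-AP, 1 was called lower and 2 did not pass the test. A call needs a fold change of 1.5 or more with a p-value, adjusted over all tested genes, under 0.05. Of all 12884 genes tested in the pancreas 16.2% were called higher, 13.5% lower and 29.8% in either direction. The groups did not overlap for any of the 8, with OA-AP above control for 6 and below it for 2, and over all tested genes OA-AP lay above control without overlap for 32.9% and below it for 29.4%, together 62.3%. The median log2 change of the 8 genes was 0.74 against 0.04 over all genes. The other two, Hspa1a and Hspa1b, entered the test only through their OA-AP counts and are described apart. In adipose tissue all 10 genes reached 10 counts in every library and were called higher, against 12.1% of 15839 tested genes called higher and 25.1% called in either direction, with a median log2 change of 1.15 against -0.01 over all genes. With library totals alone 6 of the 10 were called higher there, against 8.62% of all genes. The calls lost were those of Hspa1b (log2 change 0.59), Hsp90ab1 (0.48), Hspd1 (0.53) and Hspe1 (0.56). OA-AP lay above control without overlap for all 10, as it did for 26.4% of all genes, while 52.4% did not overlap in either direction. The pancreas calls depend on its 2 controls. Without control replicate 1 or control replicate 2 Hspa8 alone stayed called higher and none of the 10 lower, as the number of genes called fell from 3834 to 1687 and 1495, and without OA-AP replicate 1 the number of the 10 called higher was 3.

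Hspa8 (chr9:40800984-40810087, plus strand), the constitutive Hsc70 of the cytosol, was the most stable call in the pancreas. Its level was 129 and 127 CPM in controls and 274, 269 and 353 CPM in OA-AP. All 3 OA-AP libraries thus lay above both controls, with OA-AP replicate 3 highest. The log2 change was 1.22 ± 0.16 (SE, edgeR adjusted p = 0.00124), and the call held with each of the 5 libraries left out, with adjusted p-values up to 0.0334. In adipose tissue the level rose from 755, 791 and 750 CPM to 1834, 2829 and 2211 CPM, a log2 change of 1.58 ± 0.18 (adjusted p = 0.00139). Here replicate 2 was the highest of the OA-AP libraries.

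Hspa1a (chr17:34969190-34972156) and Hspa1b (chr17:34956436-34959238) are neighbouring genes on the minus strand, with 9951 bases between them, and encode stress-inducible Hsp70 proteins that are nearly identical. In the pancreas they were nearly silent in controls. Hspa1a had 3 and 1 counts there and 60, 8 and 88 in OA-AP, or 0.257 and 0.0997 CPM against 3.15, 0.458 and 4.6 CPM. Because both controls were at or under 3 counts the OA-AP mean was at least 9.83-fold higher than 3 counts in each control library, a floor that covers counting error only. Hspa1b had 9 and 3 counts in controls and 81, 17 and 74 in OA-AP, with a log2 change of 2.46 ± 0.77. OA-AP replicate 2 was the lowest of its group for both genes and lay close to the controls. Both genes passed the filter on low counts in the pancreas only through the OA-AP group, so a difference was built into their entry and their edgeR adjusted p-values of 0.0454 and 0.0434 are given as description. Their calls did not hold without control replicate 1 (log2 change 4.69 and 3.32, adjusted p = 0.185 and 0.127) or control replicate 2 (3.38 and 1.97, 0.228 and 0.243). That of Hspa1b was also lost without OA-AP replicate 1 (2.14, adjusted p = 0.114), and Hspa1a was filtered out without OA-AP replicate 1 or 3.

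In adipose tissue the same genes had far more counts and a smaller fitted change. Hspa1a rose from 2.47, 2.20 and 2.72 CPM to 5.55, 4.13 and 5.56 CPM (log2 change 1.04 ± 0.20, adjusted p = 0.00774). Hspa1b rose from 9.48, 6.27 and 11 CPM to 17.3, 12.6 and 15.1 CPM (0.75 ± 0.22, adjusted p = 0.0353). The gap between groups was narrow for Hspa1b, at 11 against 12.6 CPM, and its call was lost without control replicate 1 or 2 or OA-AP replicate 1 or 3, at adjusted p-values of 0.0578 to 0.0954. The transcripts share sequence, as 38.1% of the windows of 150 bases in Hspa1a were also found in Hspa1b, so the authors' counting could split or drop reads between them. The annotated genes Gm20481 and Gm10501 also share windows with both. Their summed counts were 0% to 87.5% of those of Hspa1a and 0% to 41.2% of those of Hspa1b over pancreas libraries. In adipose tissue they were 4.55% to 13.4% and 1.67% to 3.50%. Their part in the low pancreas values was not tested. Added together, the pair had 12 and 4 counts in control and 141, 25 and 162 in OA-AP pancreas, with a log2 change of 2.97 (adjusted p = 0.0486) that, with a control at 4 counts, also rests on entry through the OA-AP group. In adipose tissue the sum was called higher (0.82, adjusted p = 0.0181). Counts of Hspa1b per count of Hspa1a were 3 and 3 in control pancreas, on the few counts above, and 1.35, 2.13 and 0.841 in OA-AP pancreas. In adipose tissue the same ratio was 3.84, 2.85 and 4.03 in controls and 3.11, 3.05 and 2.72 in OA-AP.

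Hsph1 (Hsp110, chr5:149614287-149636376, minus strand) resets Hsp70 by releasing its ADP, and Dnajb1 (Hsp40, chr8:83608193-83612653, plus strand) brings it substrates and starts ATP hydrolysis. Both rose in adipose tissue, with groups well apart. Hsph1 rose from 19.0, 21.1 and 16.2 CPM to 58.1, 66.1 and 88.4 CPM (log2 change 1.92 ± 0.18, adjusted p = 0.000714), and Dnajb1 from 33.7, 32 and 30.3 CPM to 70.9, 76.2 and 81.9 CPM (1.25 ± 0.09, adjusted p = 0.000347). The lowest OA-AP library was above the highest control by more than the whole range of the controls for both. In the pancreas Hsph1 was 5.15 and 3.39 CPM in controls and 7.67, 7.44 and 6.28 CPM in OA-AP, and the difference did not pass the test (log2 change 0.73 ± 0.25, adjusted p = 0.0568), though it did without OA-AP replicate 3 (0.76, adjusted p = 0.0197). Dnajb1 rose there from 5.49 and 3.79 CPM to 8.45, 7.72 and 7.95 CPM (0.79 ± 0.23, adjusted p = 0.0309). The controls of both genes were further apart than the 3 OA-AP libraries, and the Dnajb1 call was lost without control replicate 1 (log2 change 1.09, adjusted p = 0.0525), control replicate 2 (0.55, 0.201) or OA-AP replicate 1 (0.74, 0.108).

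Hsp90aa1 (chr12:110690605-110702728, minus strand) is the inducible and Hsp90ab1 (chr17:45567775-45573271, minus strand) the constitutive Hsp90 of the cytosol. Hsp90aa1 rose in the pancreas from 28.7 and 28.0 CPM to 43.4, 40.9 and 58.2 CPM (log2 change 0.74 ± 0.18, adjusted p = 0.0153), and Hsp90ab1 from 196 and 183 CPM to 299.7, 261 and 339 CPM (0.66 ± 0.15, adjusted p = 0.0120). OA-AP replicate 3 was the highest library for both. Without it both changes fell to a log2 change of 0.52, under the fold threshold, and both calls were also lost without control replicate 1 (adjusted p = 0.105 and 0.0868) or control replicate 2 (0.122 and 0.132), and that of Hsp90ab1 without OA-AP replicate 1 (0.0607). In adipose tissue Hsp90aa1 rose from 209, 264 and 208 CPM to 651, 443 and 619 CPM (1.33 ± 0.18, adjusted p = 0.00232). Hsp90ab1 rose from 647, 727 and 781 CPM to 1261, 878 and 1210 CPM (0.64 ± 0.17, adjusted p = 0.0259), with replicate 2 the lowest OA-AP library for both genes. The adipose call of Hsp90ab1 was lost without each library except OA-AP replicate 2, at adjusted p-values of 0.0513 to 0.0812. The balance of the 2 genes, which does not depend on how libraries are scaled, was 32.3, 36.3 and 26.6 counts of Hsp90aa1 per 100 counts of Hsp90ab1 in adipose controls and 51.6, 50.5 and 51.2 in OA-AP. In the pancreas it was 14.6 and 15.3 in controls and 14.5, 15.7 and 17.2 in OA-AP, so the groups overlapped there and did not in adipose tissue.

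Hspb1 (Hsp25, chr5:135887919-135889563, plus strand), which holds denatured proteins in soluble complexes and binds actin, had the highest log2 change of the 10 genes in adipose tissue and the second highest in the pancreas. In adipose tissue it rose from 80.8, 83.8 and 78.5 CPM to 499, 383 and 393 CPM (log2 change 2.39 ± 0.14, adjusted p = 0.000179). Both groups were tight and far apart. In the pancreas it rose from 15.4 and 16.2 CPM to 107, 59.7 and 292 CPM (3.28 ± 0.82, adjusted p = 0.0398). The 3 OA-AP libraries were all above the controls but spread over a wide range, with replicate 3 the highest. Without that library the log2 change was 2.35 (adjusted p = 0.00215), and the call was lost without control replicate 1 (3.25, adjusted p = 0.160) or control replicate 2 (3.32, 0.155) and without the filter on low counts (3.35, 0.165).

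Of the mitochondrial chaperonins Hspe1 fell in the pancreas under TMM scaling and Hspd1 did not pass the test. Hspe1 went from 19.7 and 20.7 CPM to 13, 10.6 and 11.7 CPM (log2 change -0.78 ± 0.15, adjusted p = 0.00627), although with library totals alone its log2 change was -0.06 (adjusted p = 0.811). Hspd1 was 33.7 and 28.6 CPM in controls and 22.9, 26.0 and 20.3 CPM in OA-AP, which did not pass the test (-0.43 ± 0.16, adjusted p = 0.0658) and turned to 0.28 with library totals alone. Relative to the median of all genes the log2 change was nearly the same under both scalings, at -0.82 and -0.81 for Hspe1 and at -0.47 and -0.47 for Hspd1. The Hspe1 call was lost without control replicate 1 (-0.81, adjusted p = 0.0526) or control replicate 2 (-0.74, 0.0694). In adipose tissue both genes rose. Hspd1 went from 238, 221 and 212 CPM to 456, 283 and 338 CPM (0.68 ± 0.18, adjusted p = 0.0228) and Hspe1 from 55.9, 49.2 and 54.4 CPM to 98.5, 73.8 and 88.5 CPM (0.71 ± 0.12, adjusted p = 0.00511). OA-AP replicate 1 was the highest and replicate 2 the lowest for both. The Hspd1 call was lost without each adipose library except OA-AP replicate 2, at adjusted p-values of 0.0504 to 0.0743 and, without OA-AP replicate 1, by a log2 change of 0.48 that missed the fold threshold, while that of Hspe1 held with each of the 6 left out. With library totals alone both adipose calls were lost, as the log2 changes of 0.53 for Hspd1 and 0.56 for Hspe1 missed the fold threshold.

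Ratios within a library, chosen after the values had been seen, set the chaperonins against Hspa8 with no scaling involved. Counts of Hspd1 per 100 counts of Hspa8 were 26.2 and 22.6 in control and 8.38, 9.69 and 5.76 in OA-AP pancreas. In adipose tissue they were 31.6, 28.0 and 28.2 in controls and 24.9, 10.02 and 15.3 in OA-AP. The ratio was lower in every OA-AP library than in every control of its tissue. Counts of Hspe1 per 100 counts of Hspd1 were 58.3 and 72.5 in control and 56.8, 40.7 and 57.5 in OA-AP pancreas, against 22.2 to 25.7 in control and 21.6 to 26.1 in OA-AP adipose tissue. The 2 chaperonin genes thus kept overlapping proportions in adipose tissue, and in the pancreas the OA-AP values lay below both controls, by little in replicates 1 and 3 and by more in replicate 2. The annotated genes overlap at their starts and the strand setting of the counting is not given in the sources used here, so reads from these 112 bases cannot be assigned to either gene with certainty.

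**Figure D2:**
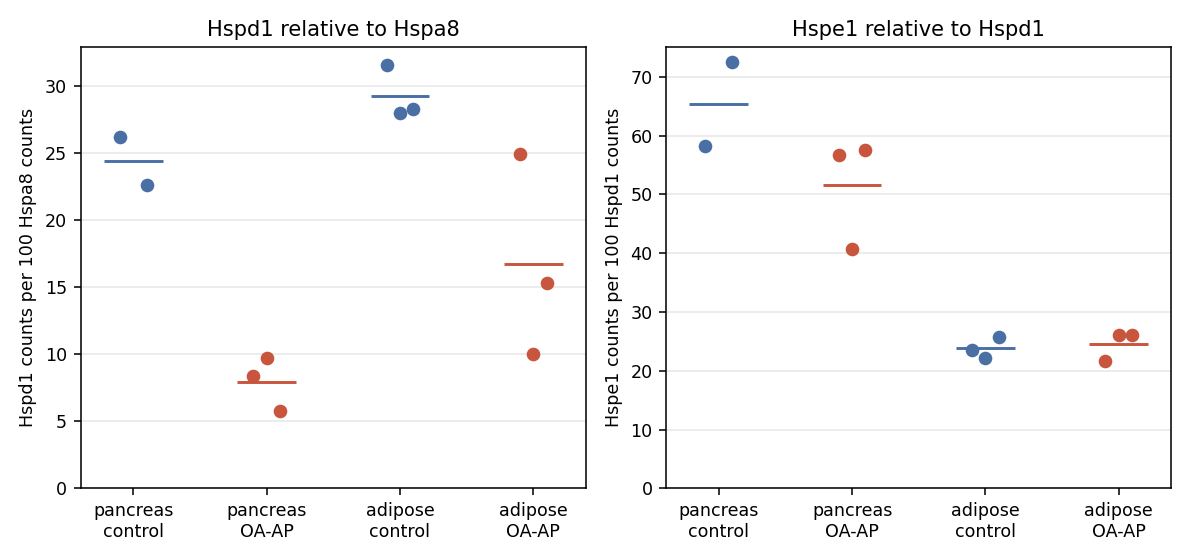
Counts of Hspd1 per 100 counts of Hspa8 (left) and of Hspe1 per 100 counts of Hspd1 (right) in each library, with bars for group means, in 2 control and 3 OA-AP pancreas and 3 control and 3 OA-AP adipose libraries. The left ratio is 22.6 or more in control and 9.69 or less in OA-AP pancreas, and the right ratio overlaps between the groups in adipose tissue.

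Whether the changes differed between the tissues was tested with the tissue by condition term over all 11 libraries, which was called for 21.3% of 17046 genes. It was called for 3 of the 10, each with a higher log2 change in adipose tissue than in the pancreas, against 10.8% of all genes called in this direction. The differences in log2 change were 1.48 ± 0.19 for Hspe1 (SE, adjusted p = 0.000293), 1.11 ± 0.25 for Hspd1 (adjusted p = 0.00792) and 1.18 ± 0.31 for Hsph1 (adjusted p = 0.0173). The Hspe1 difference held with each of the 11 libraries left out. That of Hspd1 was lost without pancreas control replicate 1 (0.97, adjusted p = 0.0512), and that of Hsph1 without the same library (0.82, 0.160) or adipose control replicate 3 (1.03, 0.0506). With library totals alone, where the median of all genes moved from -0.06 to -0.88 and the share of called differences that were positive from 50.7% to 5.9%, Hspe1 stayed called at 0.62, whereas Hspd1 at 0.26 (adjusted p = 0.503) and Hsph1 at 0.34 (adjusted p = 0.476) did not. Relative to that median the Hspe1 difference was 1.5, that of Hspd1 1.14 and that of Hsph1 1.22.

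The other 7 genes did not pass this test. Hspa1a and Hspa1b had differences of -2.86 ± 1.17 (adjusted p = 0.110) and -1.73 ± 0.81 (adjusted p = 0.161), in the direction of a larger change in the pancreas, where the fitted value of Hspa1a depends on the prior count. Both were called without pancreas OA-AP replicate 2, at -3.36 (adjusted p = 0.00240) and -2.15 (adjusted p = 0.0142). Hspb1 was at -0.90 ± 0.69 (adjusted p = 0.407), and Dnajb1 and Hsp90aa1 were at 0.46 ± 0.21 (0.148) and 0.57 ± 0.26 (0.150). Dnajb1 was called without pancreas control replicate 2 (0.71, adjusted p = 0.0428) and Hsp90aa1 without pancreas OA-AP replicate 3 (0.75, adjusted p = 0.0412). Hspa8 and Hsp90ab1 had the smallest differences, at 0.35 ± 0.27 (adjusted p = 0.410) and -0.04 ± 0.24 (adjusted p = 0.957).

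**Figure D3:**
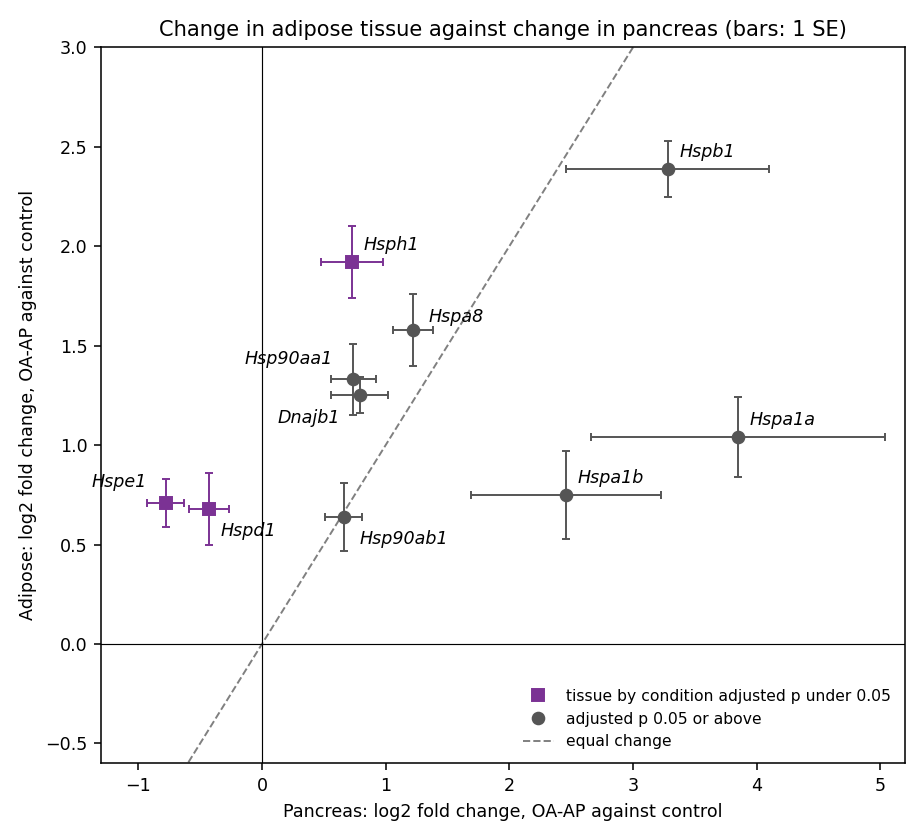
Log2 fold change of each gene in adipose tissue against that in the pancreas, OA-AP against control, with bars of 1 SE and a dashed line of equal change. Squares mark Hsph1, Hspd1 and Hspe1, whose tissue by condition term had an adjusted p-value under 0.05, and all 3 lie above the line, while Hspa1a rests on pancreas controls of 3 and 1 counts.

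**Figure D4:**
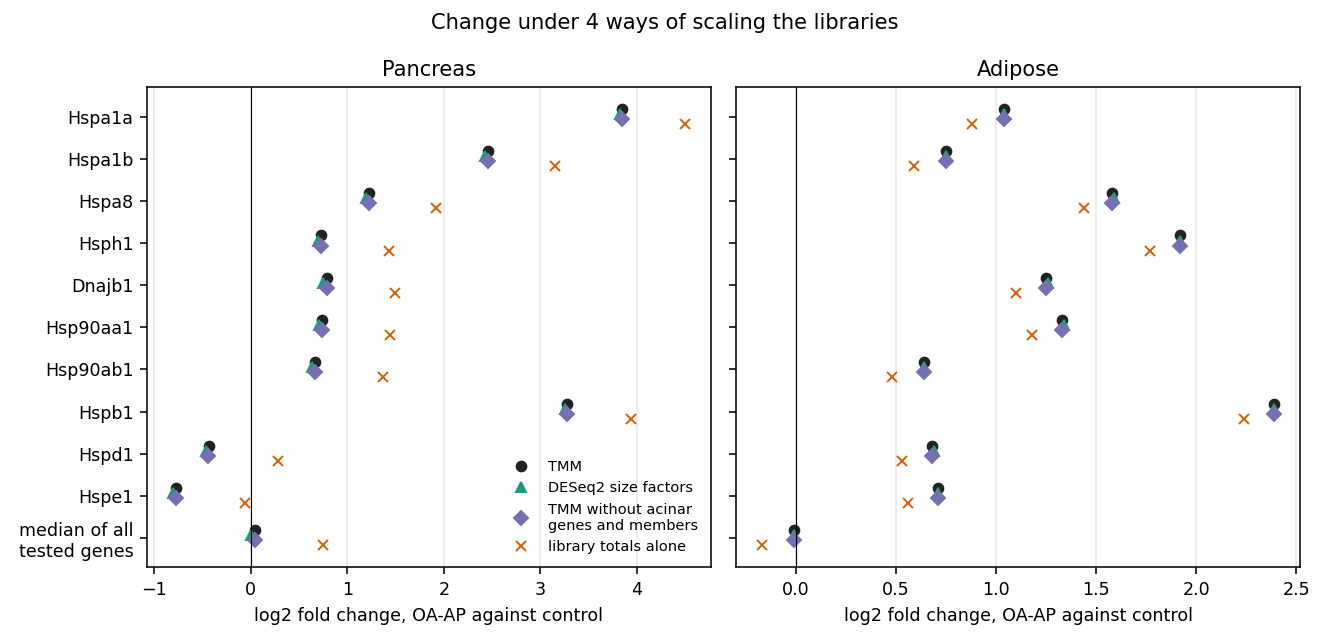
Log2 fold change of each gene and the median of all tested genes under 4 ways of scaling the libraries, in the pancreas (left) and adipose tissue (right). Under library totals alone all pancreas values move up with the median of all genes, from 0.04 to 0.75, and Hspd1 crosses 0.

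Other gene groups moved in the same libraries. In the pancreas 4 of 6 tested immediate early genes, which respond to stress and tissue handling, rose, and their summed level was 28.1 and 22.9 CPM in control and 141, 143 and 307 CPM in OA-AP. Neutrophil genes summed to 1.72 and 2.79 CPM in control and 13.6, 4.29 and 100.1 CPM in OA-AP pancreas, with 0 of 6 tested genes called by edgeR, 1 at an unadjusted p under 0.05 and 4 called by DESeq2. OA-AP replicate 3 was the highest library for both lists and for Hspb1, Hspa8, Hsp90aa1, Hsp90ab1 and Hspa1a. Dnajb1 (8.45 CPM), Hspa1b (4.25 CPM) and Hsph1 (7.67 CPM) were instead highest in OA-AP replicate 1. Hsph1 (6.28 CPM) and Hspd1 (20.3 CPM) were lowest of the OA-AP group in replicate 3. Of 12 acinar genes 8 fell in the pancreas. In adipose tissue 4 of 7 immediate early genes rose (149 to 175 CPM in control and 360 to 720 CPM in OA-AP), as did 5 of 6 neutrophil genes (17.1 to 35.7 against 152 to 191 CPM), and 4 of 5 fibroblast genes fell. Of 5 tested lymphocyte genes 4 fell there, among them the B cell genes Ms4a1 (log2 change -4.10) and Cd79b (-3.12), and DESeq2 called 3 of the 5. The list summed to 7.57, 34.0 and 11.8 CPM in control and 2.49 to 5 CPM in OA-AP. The highest of these was control replicate 2, the library that also held the acinar genes. Of 3 erythroid genes the globin genes Hba-a1 (0.89) and Hbb-bs (0.92) rose, and the list summed to 363 to 492.2 CPM in control and 492.4 to 917 CPM in OA-AP. The part of these lists in the changes of the heat shock genes was not tested.

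The wider chaperone network was described with 84 genes in 8 lists, of which 78 were tested in each tissue. In the pancreas 12 were called higher and 10 lower, or 28.2% of those tested, close to the 29.8% of all genes, with a median log2 change of 0.02. Among those called higher, Hspb7 had at most 1 count in controls and passed the filter on low counts only through the OA-AP group. In adipose tissue 22 were called higher and 2 lower, or 30.8% against 25.1% of all genes, with a median of 0.27. With library totals alone these counts became 41 higher and 2 lower in the pancreas, where 45.4% of all tested genes were called higher and 3.93% lower, and 12 higher and 3 lower in adipose tissue, where the shares were 8.62% and 18.2%.

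The cytosolic chaperonin CCT/TRiC folds actin and tubulin. Of its 8 subunits 6 rose in adipose tissue (3 with library totals alone), with a median log2 change of 0.71, among them Cct3 (67.1 ± 3.14 to 164 ± 24.6 CPM, SD, n = 3, log2 change 1.29 ± 0.13, adjusted p = 0.000792), Cct6a (0.90) and Cct7 (0.73, and 0.57 without a call with library totals alone). Called genes made up 75% of the subunits in adipose tissue, against 25.1% of all genes. In the pancreas edgeR and DESeq2 each called 0 of the 8, with 2 at an unadjusted p under 0.05 in edgeR, namely Cct8 (0.54) and Cct2 (0.40), which missed the fold threshold. The median there was 0.25, and all 8 were called higher with library totals alone, where 45.4% of all genes were. The difference between tissues passed the test for 4 of the 8 under TMM scaling, at 1.01 for Cct3 (adjusted p = 0.00502), 0.65 for Cct6a (0.0191), 0.64 for Cct7 (0.0204) and 0.67 for Tcp1 (0.0206), a subunit outside the rule for naming genes that was named after its value was seen. None of these 4 differences passed with library totals alone, where Cct3 was at 0.16 (adjusted p = 0.559) and Cct6a (-0.20), Cct7 (-0.20) and Tcp1 (-0.18) turned direction.

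Of 16 Hsp90 co-chaperones 6 rose and none fell in adipose tissue (3 and none with library totals alone), while 3 rose and 3 fell in the pancreas (8 and none with library totals alone). Called genes made up 37.5% of the list in each tissue under TMM scaling, against 25.1% of all genes in adipose tissue and 29.8% in the pancreas. Fkbp5, an immunophilin of the Hsp90 complex with steroid receptors, rose in both tissues, from 11.3 ± 0.543 CPM (n = 2) to 207 ± 38.6 CPM (n = 3) in the pancreas (log2 change 4.20 ± 0.21, adjusted p = 4.28e-05) and from 96.6 ± 39.2 to 504 ± 136 CPM in adipose tissue (2.38 ± 0.34, adjusted p = 0.00298). Its difference between tissues was -1.83 (adjusted p = 0.0145). Ptges3 (p23) rose in the pancreas (1.05), whereas Fkbp4 fell (-0.98, and -0.26 without a call with library totals alone). Ahsa1, which speeds up the ATPase of Hsp90, and Stip1 (Hop), which links Hsp70 to Hsp90, rose in adipose tissue at log2 changes of 0.91 and 0.75.

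Of the 5 small heat shock protein genes tested besides Hspb1, Hspb7, known from heart and muscle, rose in adipose tissue from 18.1 ± 10.3 to 756 ± 229 CPM (log2 change 5.39 ± 0.59, adjusted p = 0.00149). In the pancreas its controls had at most 1 count and its OA-AP mean of 0.881 CPM was at least 3.17-fold higher than 3 counts in each control library. Hspb7 passed the filter on low counts there only through the OA-AP group, so a difference was built into its entry. Cryab, the crystallin of lens and muscle, fell in the pancreas from 17.9 ± 5.10 to 4.00 ± 0.215 CPM (-2.16 ± 0.21, adjusted p = 0.000403) and rose in adipose tissue from 63.1 ± 13.4 to 195 ± 37.0 CPM (1.63 ± 0.20, adjusted p = 0.00177), with a difference between tissues of 3.78 (adjusted p = 3.03e-05). Skeletal muscle genes summed to 7.23 to 32.5 CPM in control and 23.8 to 152 CPM in OA-AP adipose tissue, a sum carried by Acta1, at 17.4 CPM in control and 82.3 CPM in OA-AP, which did not pass the test (log2 change 2.24, adjusted p = 0.0660). Of the other listed muscle genes Mylpf fell (-1.65, adjusted p = 0.0111), Ckm was at 0 in control and 0.0160 CPM in OA-AP, and Myh4 was at 0 in every library. The part of these genes in the Hspb7 and Cryab values was not tested. Hspb8 rose in the pancreas at 1.67 (adjusted p = 0.00778).

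Among 7 tested relatives of Hsp70 and Hsp110, Hspa13, an Hsp70-like protein of microsomes, fell in the pancreas (-1.49 ± 0.17, adjusted p = 0.000723) and rose in adipose tissue (0.65 ± 0.12, adjusted p = 0.00611), where Hspa4 (0.81) and Hspa4l (0.71) rose as well. The adipose calls of Hspa13 (0.50) and Hspa4l (0.56) were lost with library totals alone. Of 15 J-domain genes 4 rose in the pancreas, including Dnajb6 (1.10), Dnajb12 (0.99) and Dnaja2 (0.60, and 0.57 without a call in DESeq2), and 1, Dnajc2 (0.86), in adipose tissue. Called genes made up 26.7% of this list in the pancreas and 6.67% in adipose tissue. Over all genes 16.2% and 12.1% were called higher, and 29.8% and 25.1% in either direction. Among 8 exchange and BAG factors Bag3, a partner of Hsp70 and small heat shock proteins, rose in adipose tissue (0.80), as did Bag2 (1.21), while Bag4 fell (-1.38). Bag3, named there after its value was seen, was also called higher in the pancreas (0.89, adjusted p = 0.0434). In the pancreas Bag1 (-0.76), Stub1 (-0.75) and St13 (-0.62) fell, calls that were all lost with library totals alone (-0.05, -0.05 and 0.09).

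Of 14 other mitochondrial chaperones and proteases 1 rose and 2 fell in the pancreas and 1 rose and 1 fell in adipose tissue. Called genes made up 21.4% and 14.3% of this list, under the 29.8% and 25.1% of all genes. Grpel1, the exchange factor of mitochondrial Hsp70, rose in both tissues (1.13, adjusted p = 0.00312 in the pancreas and 0.63, adjusted p = 0.00366 in adipose tissue). The adipose call was lost with library totals alone (0.48). In the pancreas Grpel1 thus moved opposite to Hspe1 under TMM scaling. The protease gene Htra2 fell there (-0.68), a call lost with library totals alone (0.04). Of 5 heat shock factors and regulators tested, Hsf1 rose in the pancreas from 9.68 ± 0.149 to 14.9 ± 2.29 CPM (log2 change 0.62 ± 0.18, adjusted p = 0.0312), a call that DESeq2 did not make (0.59, adjusted p = 0.0588). In adipose tissue Hsf1 was 30.7 ± 2.93 and 41.9 ± 2.33 CPM (0.45 ± 0.10, adjusted p = 0.0128), which missed the fold threshold.

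**Figure D5:**
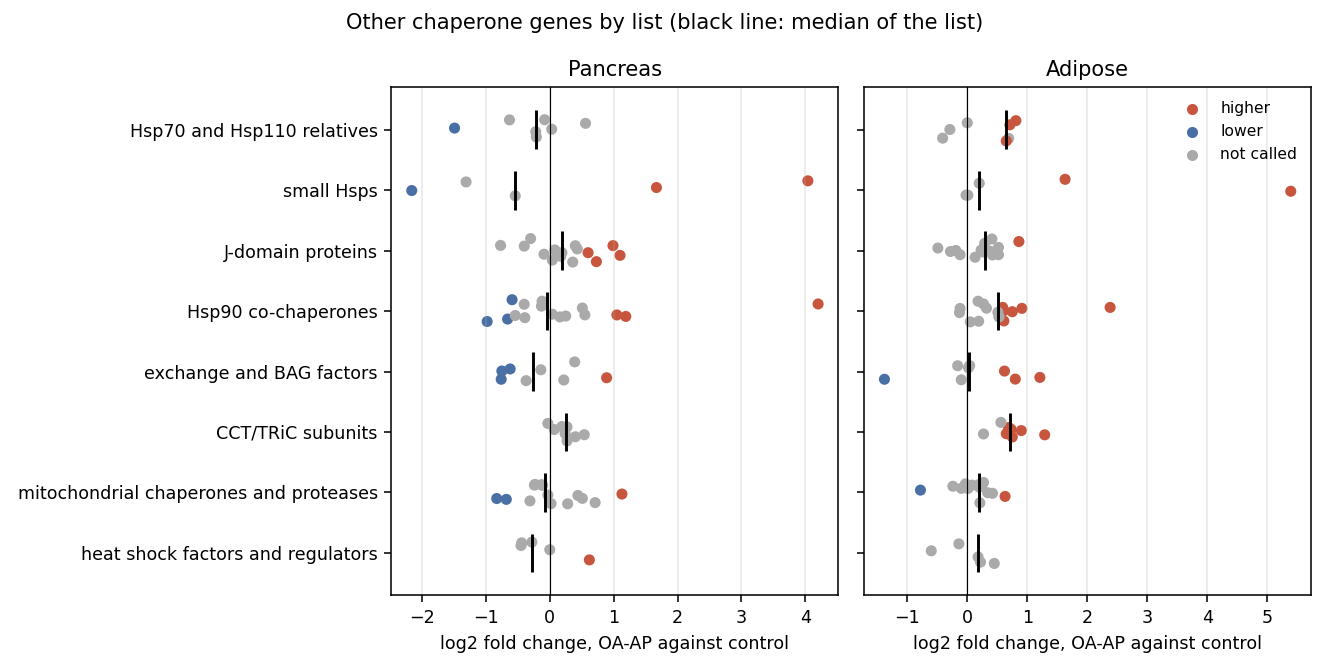
Log2 fold change, OA-AP against control, of 78 tested genes in 8 lists of other chaperone genes in the pancreas (left) and adipose tissue (right), with each list's median as a black line and colours for the call. Under TMM scaling 6 of 8 CCT/TRiC subunits were called higher in adipose tissue (3 with library totals alone) and none in the pancreas (8 with library totals alone).

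Across the 11 libraries, after centring log2 CPM within each tissue, Hspa1a correlated most with Hspa1b (Pearson's r = 0.97), Hsph1 with Dnajb1 (0.97) and Hspd1 with Hspe1 (0.86), values set in part by the group difference and by the library scaling that all genes share. After removing group means as well, r was 0.93, 0.82 and 0.48 for these pairs and 0.82 for Hsp90aa1 with Hsp90ab1, while Hspa8 and Hspd1 varied in opposite directions (-0.87). Of 5238 other genes compared, Cyfip1 (0.981), Gmfb (0.976) and Crip2 (0.976) were most like the mean of Hspa1a, Hspa1b, Hsph1, Dnajb1 and Hsp90aa1, and Taf10 (0.980), Rnh1 (0.977) and Fpgs (0.967) most like the mean of Hspd1 and Hspe1. Taf10, Rnh1 and Fpgs had log2 changes of -0.57, -0.53 and -0.73 in the pancreas and 0.61, 0.68 and 0.97 in adipose tissue. Those of Cyfip1, Gmfb and Crip2 were 0.41, 0.65 and 1.59 in the pancreas and 0.30, 0.54 and 0.96 in adipose tissue. A high r does not mean a change of like size.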

How the data were processed

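RNA was extracted from pancreas and epididymal adipose tissue, sequenced as Illumina libraries and, per the labels and the study's methods, trimmed with Trim Galore (0.6.6), checked with fastp (0.20.1), mapped to GRCm38 with STAR and assigned to genes with featureCounts (2.0.1). The authors deposited raw counts per gene and sample, without normalization. Annotation release and strand setting are not given in the sources used here. Members and gene lists were chosen with earlier results of these data known. Counts were filtered with filterByExpr, scaled by TMM and tested per tissue with edgeR 4.0.16 (quasi-likelihood, robust, Benjamini-Hochberg over all tested genes), in R 4.3.3. The SE is the size of the log2 change divided by the square root of F. The tissue by condition term was fitted over 11 libraries, with a call at adjusted p under 0.05 alone. The tests were tested on simulated data. Libraries of one group differed by more than counting noise (lowest chi-square per degree of freedom 7.56). All 10 members are named, and of each wider list up to 3 genes per tissue with the smallest p, besides the 3 genes most like each of the member sets. Alternatives were DESeq2 1.42.0, its size factors, library totals alone, TMM without acinar genes and members, no filter or at least 10 counts in every library, other fold thresholds, Hspa1a and Hspa1b summed, each library left out, and a replicate block. Ratios of members within a library, and for list genes the calls of DESeq2 and the tissue term with library totals alone, were added after the data had been seen. Same-numbered tissues could not be tied to one mouse. Promoters are from RefSeq and shared windows from GENCODE M21 transcripts.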

Additional observations from a re-analysis of the deposited data

Results flagged for a closer look

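The change of 3 genes differed between adipose tissue and pancreas by the test of the difference itself. Adipose minus pancreas, the log2 change differed by 1.48 for Hspe1 (adjusted p = 0.000293), by 1.11 for Hspd1 (adjusted p = 0.00792) and by 1.18 for Hsph1 (adjusted p = 0.0173) in edgeR's tissue by condition term. Under TMM scaling Hspe1 was lower in 3 of 3 OA-AP pancreas libraries than in both controls and higher in 3 of 3 OA-AP adipose libraries than in all controls. Tissue and sequencing depth go together in these libraries, and their part in the differences cannot be told apart.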

How the results depend on the processing

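Of 159 alternative values of the 10 genes in adipose tissue 136 kept their call, 23 lost it and 0 turned direction. In the pancreas 113 of 145 kept it, 27 lost it, 4 gained one and 1 turned direction, and for the tissue by condition term the numbers were 166 of 187, 6, 8 and 7. With library totals alone 6349 pancreas genes were called and 0 members lower, Hspd1 turned to 0.28, 6 members were called higher in adipose tissue, and for the difference between tissues 6662 genes, 1 member above and 3 below were called, with Hspa8 at -0.48, Dnajb1 at -0.38 and Hsp90aa1 at -0.26. A fold change of at least 2 left 2464 of 12884 tested pancreas genes called, 1291 of them higher and 1173 lower. Of the members 4 were higher and 0 lower. The 4 include Hspa1a and Hspa1b, which entered the test only through their OA-AP counts. In adipose tissue 2228 of 15839 tested genes were called in either direction, with 6 members higher. DESeq2 called 1 member, Hspa1a, lower for the difference between tissues (-2.86, adjusted p = 0.0432). In the pancreas without OA-AP replicate 1 edgeR called 1472 of 12457 genes and 3 members higher, and 1231 genes and 1 member lower. Without OA-AP replicate 2 these were 2208 of 12525 and 7, and 1852 and 1. Without OA-AP replicate 3 they were 2123 of 12576 and 5, and 2142 and 1. The 7 include Hspa1a and Hspa1b, which entered the test only through their OA-AP counts. Hspa1a was not tested without OA-AP replicate 1 or 3. With single libraries left out, pancreas genes called ranged from 1495 to 4265, members higher from 1 to 7 and lower from 0 to 1. In adipose tissue 2865 to 4476 genes and 7 to 10 members were called, and for the difference 2334 to 3857 genes, 1 to 4 members above and 0 to 2 below, with Hsp90ab1 between -0.17 and 0.06. The deviations of same-numbered samples correlated at r of -0.16 to 0.13, which did not meet the rule for pairing (every r over 0.1) and does not show whether they share a mouse. With a replicate block 2156 genes were called for the difference and Hsp90ab1 was at 0.02. Under the block Hsph1 lost its difference (1.05, adjusted p = 0.0843) and gained a pancreas call (0.83), and the calls of Hsp90aa1 (0.57) and Hsp90ab1 (0.56) in the pancreas and of Hsp90ab1 (0.62, adjusted p = 0.0543) in adipose tissue were lost. The causes of these changes were not tested, except that a left-out control leaves a single pancreas control, assumed to vary like the other libraries.

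Counts of 3 and 1 in control pancreas limit Hspa1a, and 2 controls limit all pancreas calls. Shared windows of 150 bases make up 46.0% of Hspa1a, 40.5% of Hspa1b, 56.0% of Hspa8, 36.2% of Hsp90aa1, 36.6% of Hspb1, 18.6% of Hspd1 and 14.1% of Hspe1 transcripts, found in transcripts of other annotated genes, and 0% of Hsph1, Dnajb1 and Hsp90ab1, so the counts of the first 7 are less certain.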
